A study of Homo sapiens with 2 samples.

Results

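The genes of the proteasome were examined for NeuroD1 peaks in IMR-32 cells, an established human neuroblastoma line. They were taken by symbol, as all protein-coding RefSeq genes of GRCh38 whose symbol starts with PSMA, PSMB, PSMC, PSMD, PSME, PSMF or PSMG, together with POMP. The rule gave 51 of 20037 protein-coding genes. Chromatin of wild-type IMR-32 cells was immunoprecipitated with an antibody against NeuroD1 in 1 ChIP library, and the labels pair it with 1 input library that was not analysed here. The study's supplementary ChIP methods name an antibody against acetylated histone H3, whereas its Results describe NeuroD1 ChIP-seq. A supplementary figure of the study reports enrichment of NeuroD1 motifs at the binding sites. The target is given here as the labels give it. With 1 library there was no replicate and no test between conditions, and the total number of reads is unknown. Each peak is described by its fold enrichment, the ChIP signal at its summit over the local background, and by the ChIP reads at the summit, which were solved from the deposited values. Intervals are exact Poisson 95% intervals for reads, carried over to the fold with the background held fixed, and cover counting error only.

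The proteasome is the protease that degrades proteins tagged with ubiquitin. Its 20S core is a barrel of outer alpha rings, which gate the entry, and inner beta rings, which hold the catalytic sites. The 19S regulatory particle binds the tagged substrate, removes its ubiquitin and unfolds it with a ring of ATPases. Other activators can cap the core, and dedicated chaperones build the core and the regulatory particle. NeuroD1 is a neuronal basic helix-loop-helix factor that binds E-boxes, the 6-base motif CANNTG, and favours forms such as CAGATG. The study asked how NeuroD1 protects the N-Myc protein from degradation by the proteasome, and the comparison here asks how often NeuroD1 peaks lie at the genes of the proteasome itself.

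Of the 51 genes, 17 had a peak in the gene or within 3 kb of either end. This is 33.3% (exact binomial 95% interval 20.8% to 47.9%). Binomial intervals of shares treat genes as independent draws, though genes are not replicates and neighbours can share a peak. They describe the size of the set and are no test. Across the whole set of protein-coding genes the share was 21.4%. Longer genes had a peak more often, and among other protein-coding genes the share rose from 8.86% in the shortest of 10 length classes to 36.2% in the longest. Other protein-coding genes at the lengths of the proteasome genes had a peak in 18.8%, which corresponds to 9.61 genes where 17 were observed. With only peaks of a −log10 q of at least 5 the shares were 21.6% and 15.2%, and with the gene body alone they were 21.6% and 13.2%. Among genes with a CpG-rich promoter they were 30.0% and 26.2%. The share of the proteasome genes was higher than that of the other genes in 7 of the 9 length classes that held any of them, and lower in the classes up to 16330 bp and up to 52293 bp. The 17 genes carried 18 distinct peaks, since PSMA5 and PSME2 had 2 each and PSME1 and PSME2 shared 1.

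**Figure D1:**
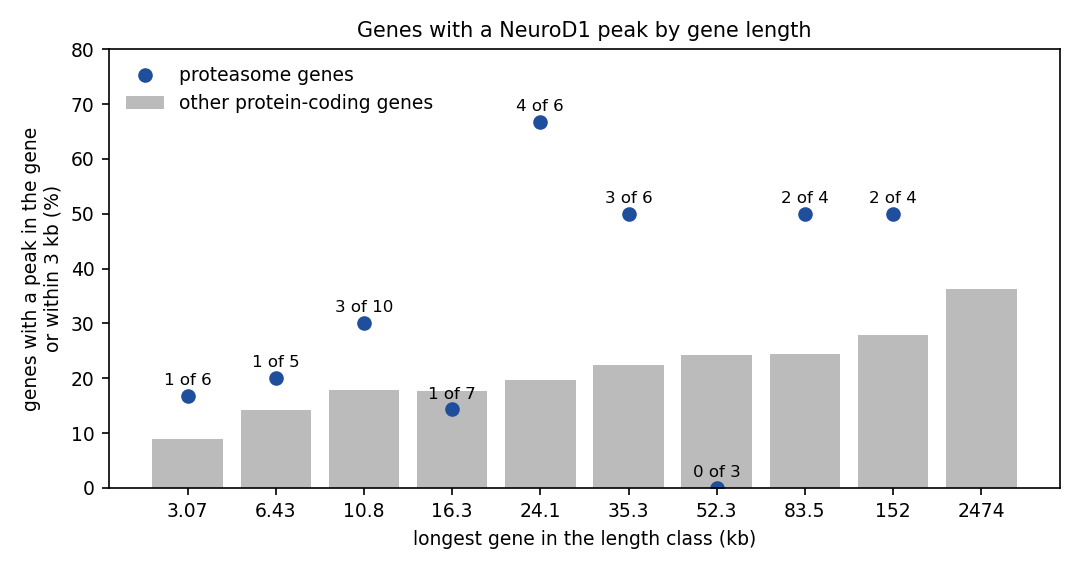
Percent of genes with a peak in the gene or within 3 kb (vertical axis) in 10 classes of gene length, each named by its longest gene in kb (horizontal axis). Grey bars are other protein-coding genes and blue points proteasome genes, with the number that had a peak of the number in the class. The bars rise from 8.86% to 36.2%, and the longest class holds no proteasome gene.

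The peaks were spread over most parts of the complex. A peak was present at 3 of 8 alpha-ring genes, 2 of 7 constitutive beta-ring genes, 2 of 6 genes of the 19S ATPases, 4 of 11 genes of the other 19S subunits, 3 of 5 genes of activators and the inhibitor, and 3 of 8 assembly genes. None of the 4 genes of the immunoproteasome and thymoproteasome had one. These are PSMB8, PSMB9 and PSMB10, the inducible catalytic subunits used in antigen processing, and PSMB11, the catalytic subunit of thymic epithelium. They are short, and other genes of their lengths had a peak in 11.5%, or 0.46 of 4 genes. The groups are too small to be ranked, and their intervals overlapped throughout. The symbol rule also takes PSMC3IP, a meiotic recombination factor, and PSME3IP1, which interacts with an activator. Neither had a peak, and without them the count was 17 of 49 (34.7%).

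In the alpha ring, PSMA1 held the strongest peak of all proteasome genes. It lay over the annotated start of the gene at chr11:14520329-14520645 and reached a fold of 11.4 (7.63 to 16.6) from 26 reads (16.98 to 38.1), with a −log10 q of 19.5. It ranked 602nd of 6183 peaks by fold, so even the highest proteasome peak lay well below the top of the list, whose highest fold was 70.0. PSMA5 had a peak over its start at chr1:109426428-109426746 with a fold of 10.05 (6.53 to 14.9). A second peak lay 853 bp beyond the other end of PSMA5, at chr1:109397898-109398189, with a fold of 8.23 (5.18 to 12.5). The summit of the second peak was 176 bp upstream of the start of SORT1, a sorting receptor, and 28354 bp from the start of PSMA5. At PSMA7 a peak at chr20:62143398-62143791 began 4 bp beyond the gene, with a fold of 7.71 (4.53 to 12.4), and its summit lay 301 bp upstream of the start of SS18L1. The other 5 alpha-ring genes, PSMA2, PSMA3, PSMA4, PSMA6 and the testis form PSMA8, had no peak within 3 kb or 10 kb.

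The bases under the PSMA1 and PSMA5 peaks are shown because these are the strongest peaks at proteasome genes. Both lines give the 250 bases before the annotated start in the direction of transcription (RefSeq, GRCh38.p14), from chr11:14520387-14520636 and chr1:109426449-109426698 on the minus strand, with E-boxes in capitals.
PSMA1: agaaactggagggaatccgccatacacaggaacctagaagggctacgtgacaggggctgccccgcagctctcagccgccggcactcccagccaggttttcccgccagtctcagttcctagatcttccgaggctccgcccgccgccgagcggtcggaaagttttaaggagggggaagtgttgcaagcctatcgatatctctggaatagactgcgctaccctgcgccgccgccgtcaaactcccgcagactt
PSMA5: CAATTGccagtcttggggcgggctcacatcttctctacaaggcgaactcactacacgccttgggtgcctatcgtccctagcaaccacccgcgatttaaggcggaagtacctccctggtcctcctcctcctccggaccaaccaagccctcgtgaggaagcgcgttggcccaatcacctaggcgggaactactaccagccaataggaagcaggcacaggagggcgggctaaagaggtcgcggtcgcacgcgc
The PSMA1 stretch held no E-box. That of PSMA5 held 1, at the far edge of the stretch, 250 bases before the start, while the summit lay 108 bases before it. A further E-box of PSMA5, CAGTTG, spanned the start itself and is not in the printed stretch.

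In the beta rings, PSMB5 and PSMB1 had weak peaks, both outside the gene. PSMB5 encodes the chymotrypsin-like catalytic subunit that bortezomib blocks. Its peak, at chr14:23025139-23025284, lay 567 bp beyond the end away from its start, with a fold of 5.31 (2.80 to 9.35) from 10 reads. It was the only one of the 18 peaks with no annotated protein-coding start within 1 kb. PSMB1 had a peak 839 bp beyond the gene at chr6:170554146-170554291 with a fold of 5.41 (3.002 to 9.14), and its summit was 116 bp upstream of the start of TBP, the TATA-binding protein. PSMB6 and PSMB7, which encode the other constitutive catalytic subunits, and the structural subunits PSMB2, PSMB3 and PSMB4 had no peak within 10 kb.

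Among the 19S ATPases, which unfold the substrate, PSMC6 and PSMC2 each had 1 peak, and neither lay in the gene. The PSMC6 peak was 1421 bp beyond the gene at chr14:52730011-52730190 with a fold of 8.20 (4.90 to 13.0), and its summit was 112 bp upstream of the start of STYX. The PSMC2 peak, at chr7:103344697-103344920, was 2604 bp from the gene and 48 bp upstream of the start of DNAJC2, with a fold of 5.31 (2.80 to 9.35). PSMC1, PSMC3, PSMC4 and PSMC5 had none. All 6 genes of this ring have an annotated start in the promoter table, and no peak was found within 1 kb of any of them. Over all protein-coding genes with a listed start 15.6% had one, and 6 genes are too few for a contrast.

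Among genes of the non-ATPase subunits of the 19S particle, the 4 with a peak had it at the start of the gene itself. A start was listed for 10 of the 11 genes of this group. PSMD3, a subunit of the lid, had a peak at chr17:39980673-39980921 with a fold of 7.52 (4.84 to 11.2) from 22 reads. PSMD12, another lid subunit, had one at chr17:67366554-67366738 with a fold of 6.24 (4.05 to 9.23) from 23 reads. PSMD8 had one at chr19:38374473-38374653 with a fold of 5.79 (3.14 to 9.97) from 11 reads. PSMD1, the large scaffold subunit, had the weakest peak of the set, at chr2:231056549-231056912, with a fold of 3.93 (2.31 to 6.31). Its 15 reads were no fewer than those of several stronger peaks, but the background there was 3 reads, against a median of 1.33 over the 18 peaks. The other 7 genes had no peak within 3 kb. They include PSMD14, which encodes the deubiquitinase of the particle, PSMD4, a ubiquitin receptor, and PSMD6, PSMD7 and PSMD13. The remaining 2, PSMD11 and PSMD2, had a peak only within 10 kb.

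The PSMD8 and PSMD12 promoters are shown as a pair that differed in E-boxes. Each line gives the bases under the peak before the start, 98 bases of PSMD8 from chr19:38374473-38374570 on the plus strand and 161 bases of PSMD12 from chr17:67366578-67366738 on the minus strand, with E-boxes in capitals.
PSMD8: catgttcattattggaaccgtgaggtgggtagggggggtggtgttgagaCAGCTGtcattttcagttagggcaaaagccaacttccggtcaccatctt
PSMD12: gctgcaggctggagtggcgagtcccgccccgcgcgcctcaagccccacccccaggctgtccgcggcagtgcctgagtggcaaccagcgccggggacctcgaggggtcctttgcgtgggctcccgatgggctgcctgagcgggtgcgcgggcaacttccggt
The E-box in the PSMD8 stretch, CAGCTG, began 49 bases before the start, and the summit of the peak lay 22 bases before the start. A further E-box of PSMD8 under the peak, CAACTG, began 23 bases after the start and is not in the printed stretch. PSMD12 held none, and the intervals of the folds of both peaks overlapped.

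Among the activators, PSME1 and PSME2, the interferon-inducible pair that forms a cap on the core, lie close together on chromosome 14. A peak between them at chr14:24141564-24141858 was 2602 bp from PSME1 and 1507 bp from PSME2, with a fold of 8.55 (5.18 to 13.4). Its summit was 139 bp upstream of the start of EMC9, a subunit of a membrane protein complex of the endoplasmic reticulum. PSME2 also had a peak over its own start at chr14:24146528-24146816, with a fold of 7.19 (4.58 to 10.8) from 21 reads, and the summit of this peak was 222 bp upstream of a start of RNF31, a ubiquitin ligase. PSMF1, an inhibitor of the core, had a peak at chr20:1118424-1118596 with a fold of 6.27 (3.48 to 10.6) from 12 reads. It was the only peak at a gene's own start that did not cover it, ending 6 bases before. PSME3 and PSME4, which form other caps, had no peak within 10 kb.

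The PSME2 and PSMF1 stretches are shown because each peak held a single E-box before the start at a different distance from the summit. They are 206 bases from chr14:24146611-24146816 on the minus strand and 173 bases from chr20:1118424-1118596 on the plus strand, again with E-boxes in capitals.
PSME2: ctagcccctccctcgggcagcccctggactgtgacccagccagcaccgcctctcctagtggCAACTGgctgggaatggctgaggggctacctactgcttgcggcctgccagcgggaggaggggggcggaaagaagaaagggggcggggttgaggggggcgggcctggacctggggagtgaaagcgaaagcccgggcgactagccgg
PSMF1: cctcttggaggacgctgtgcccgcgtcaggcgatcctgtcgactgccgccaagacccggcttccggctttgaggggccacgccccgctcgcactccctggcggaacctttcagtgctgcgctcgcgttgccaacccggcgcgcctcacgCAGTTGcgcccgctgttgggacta
The PSME2 E-box began 145 bases before the start and the summit lay 43 bases before it. The PSMF1 E-box began 29 bases before the start and the summit lay 73 bases before it.

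Of the assembly genes, PSMG2 and PSMG4, chaperones of the alpha ring, and PSMD9, a chaperone of the 19S base, had peaks at their starts. The PSMG2 peak at chr18:12702645-12703087 was the widest of the 18, at 443 bp, with a fold of 9.64 (6.0 to 14.8). Its summit lay 253 bp upstream of the PSMG2 start but 12 bp upstream of a start of CEP76, which is read the other way. PSMG4 had a peak at chr6:3258886-3259118 with a fold of 7.85 (5.10 to 11.6) from 23 reads. The PSMD9 peak at chr12:121888712-121888857 had a fold of 5.27 (2.99 to 8.74), and its summit was also 203 bp upstream of the start of HPD. POMP, which drives maturation of the core, PSMG1, and the 19S chaperones PSMD5 and PSMD10 had no peak within 10 kb, and PSMG3 had one only within 10 kb. The starts used for PSMA1, PSMF1, PSMG2 and PSMG4 lie inside the RefSeq gene interval, which reaches further upstream.

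**Figure D2:**
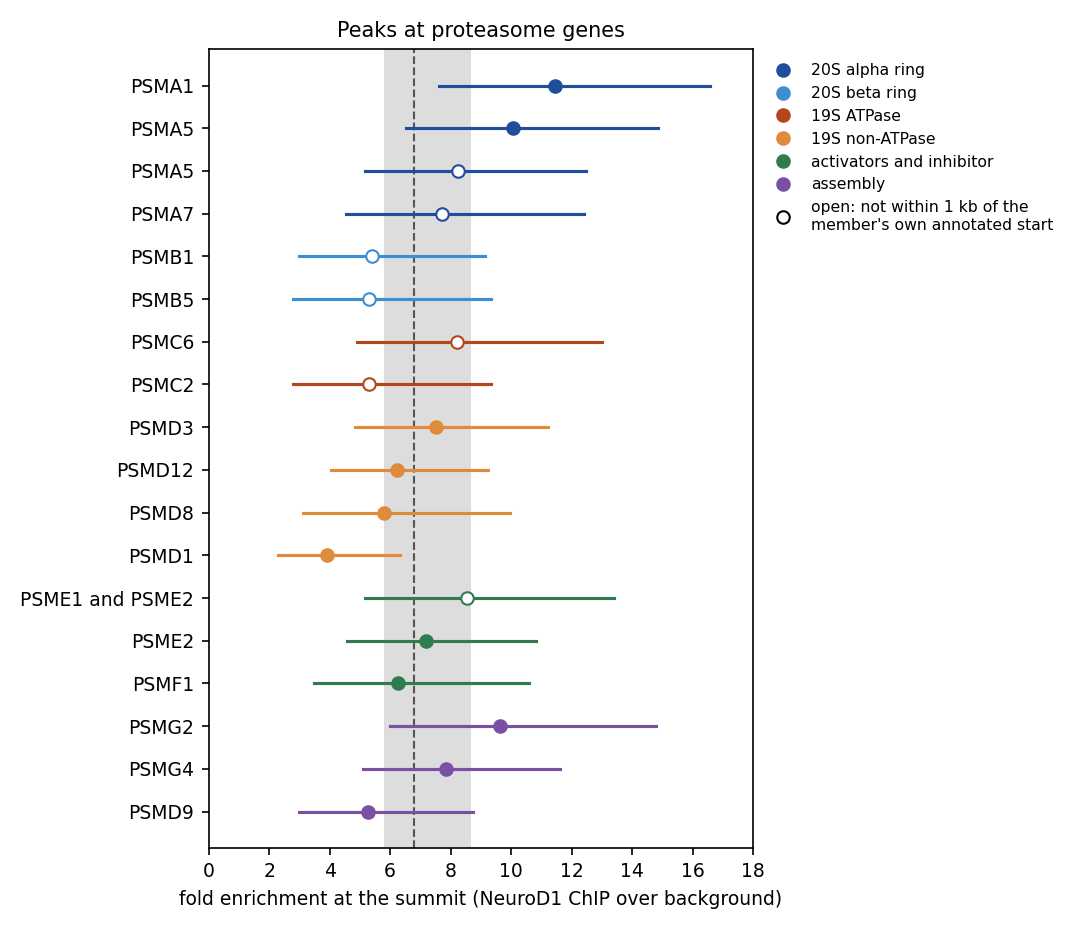
Fold enrichment (horizontal axis) of the 18 peaks in or within 3 kb of proteasome genes, ordered and coloured by the role of the gene. Points are deposited folds, lines exact Poisson 95% intervals, filled points peaks within 1 kb of the start of the named gene, the grey band the middle range of all 6183 peaks (5.79 to 8.68) and the dashed line their median (6.79). Only PSMA1 has an interval above that median and only PSMD1 one below it.

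The 18 peaks had folds within the usual range of the list. Their median fold was 7.36, against 6.79 over all 6183 peaks, and 10 of 18 lay above the median of all peaks. Folds were above the upper quartile of all peaks (8.68) at 3 peaks and below the lower quartile (5.79) at 5. The interval lay wholly above the median of all peaks at 1 peak, PSMA1, and wholly below it at 1, PSMD1. Of the other 17 peaks, 16 had an interval that overlapped that of PSMA1, so the order of the folds within the set is not resolved at this depth. The summits held 10 to 26 reads with a median of 16.5, against 17 over all peaks. The median width was 241 bp, against 220 bp, and the median −log10 q was 9.41, against 7.67. A −log10 q of at least 5 was reached by 12 of the 18 peaks.

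Just inside the limit of 3 kb lay the peaks 2602 bp from PSME1 and 2604 bp from PSMC2. Just outside it lay a peak 3092 bp from PSMD11, which had a fold of 7.18. Peaks 4455 bp from PSMG3, 5172 bp from PSMC3IP and 5421 bp from PSMD2 followed, with folds of 5.89, 5.14 and 8.20. With a limit of 10 kb these 4 genes brought the share to 41.2%, where other genes of like length reached 23%, and none of the 4 belongs to the alpha or beta ring.

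Most of the peaks sat at start sites, though some at that of another gene. A start was listed in the RefSeq promoter table for 45 of the 51 genes, and not for PSMA7, PSMB1, PSMB6, PSMB7, PSMD4 and PSMG3. A peak lay within 1 kb of a listed start in 11 of the 45 (24.4%), against 15.6% of all protein-coding genes with a listed start and 15.1% at like length, or 6.80 genes. The 11 were PSMA1, PSMA5, PSMD1, PSMD3, PSMD8, PSMD9, PSMD12, PSME2, PSMF1, PSMG2 and PSMG4. Of the 18 peaks, 17 (94.4%) lay within 1 kb of some protein-coding start. There were 11 at a listed start of the proteasome gene and 6 only at a listed start of a neighbour. Of these 6, the peaks at PSMA7 and PSMB1 could not be placed against a start of the proteasome gene, since none is listed for these 2 genes. Over all 4568 peaks in or within 3 kb of a protein-coding gene, 51.7% lay within 1 kb of a start, with no match for gene length. Counted by gene the shares were close, since a peak lay at the gene's own start in 11 of the 15 proteasome genes that had both a peak and a listed start (73.3%) and in 2471 of 3517 such genes overall (70.3%). The neighbours at the 6 peaks were SORT1, SS18L1, TBP, DNAJC2, STYX and EMC9. Of the 11 peaks, those of PSMD9, PSME2 and PSMG2 also lay within 1 kb of a start of HPD, RNF31 and CEP76, respectively.

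**Figure D3:**
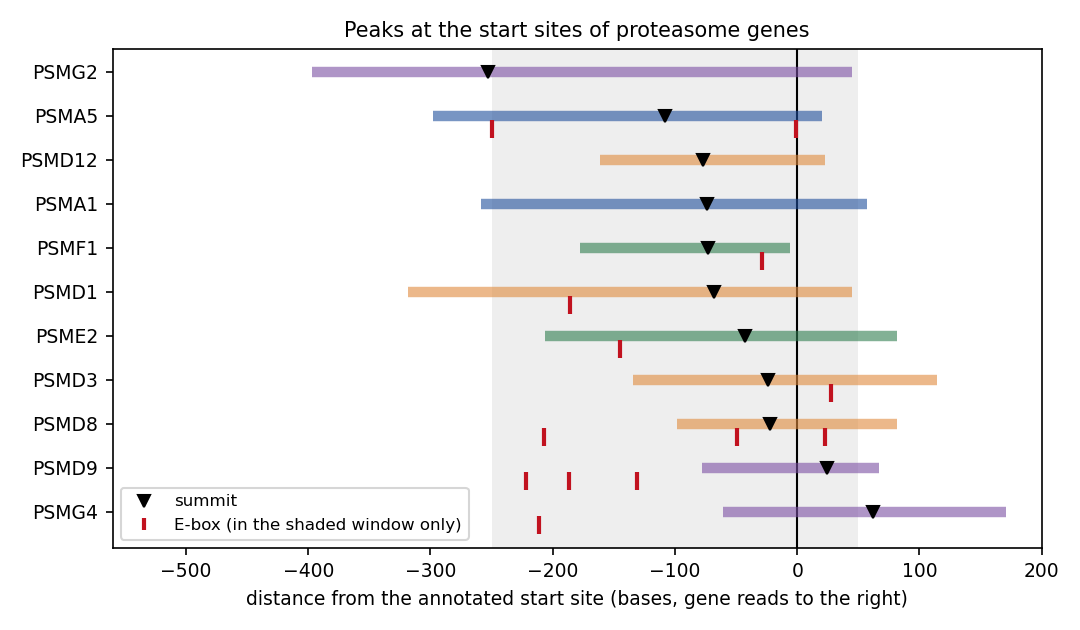
Peaks (bars, coloured by role) at the start sites of 11 proteasome genes, by distance from the start in bases, with each gene read to the right. Triangles mark summits and red ticks the first base of each CANNTG in the shaded promoter window from 250 bases before to 50 after the start. Summits lie between 253 bases before and 62 after the start, and 3 of the 11 genes have no tick.

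The summits at these 11 starts were mostly just upstream. The median position was 68 bases before the start, against 87 before it over the 2471 genes with a peak at a start, and 9 of 11 lay upstream, against 82.0%. The exceptions were PSMD9, 24 bases after the start, and PSMG4, 62 bases after it. The median fold of the 11 peaks was 7.19 and that of the other 7 was 7.71, while the 3 highest of the 18 peaks, at PSMA1, PSMA5 and PSMG2, were all at a listed start of the gene.

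Proteasome promoters are rich in CpG, and in these data a peak at the start was more frequent among genes with such promoters. The ratio of observed to expected CpG in the promoter window of 300 bases was at least 0.6 in 40 of 45 proteasome genes (88.9%), against 70.3% of all protein-coding genes. Among all genes, 20.9% of those above this limit had a peak at the start and 2.99% of those below it. Within the CpG-rich genes the proteasome genes were close to the rest, with a peak at the start in 9 of 40 (22.5%), where other CpG-rich genes at like length had one in 21.2%, or 8.49 genes. For the gene and 3 kb on either side, the count was 12 of 40 (30.0%), against 26.2%, or 10.5 genes. The comparison within CpG-rich promoters was added after the data were seen. The other 2 genes with a peak at the start were PSMD8, with a ratio of 0.54, and PSME2, with a ratio of 0.50. The remaining 3 genes below the limit, PSMB10, PSMB11 and PSMC2, had no peak at the start.

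**Figure D4:**
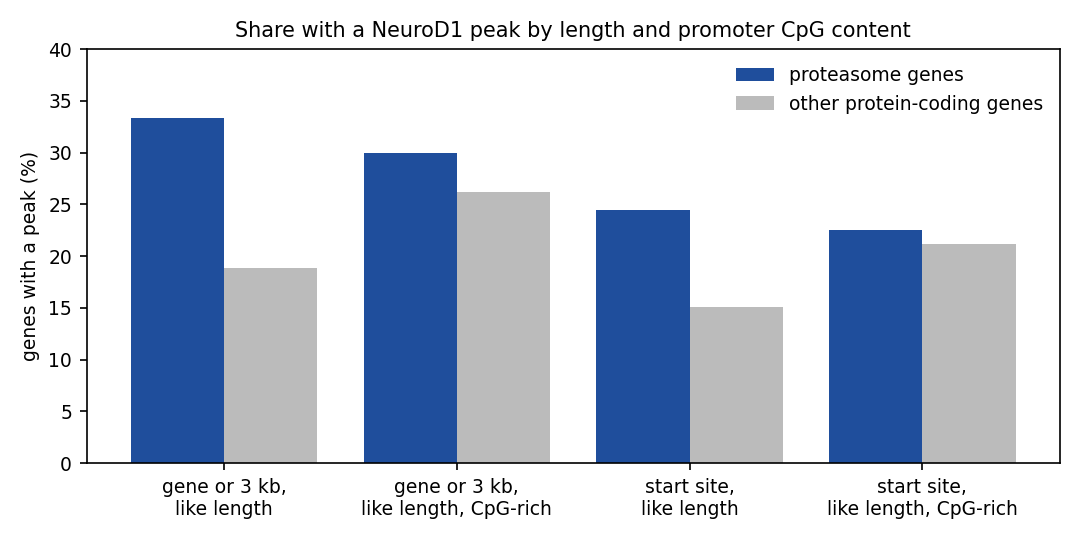
Percent of genes with a peak (vertical axis) for proteasome genes (blue) and other protein-coding genes at the same lengths (grey), for the gene and 3 kb on either side and for 1 kb around the start, each over all genes and over genes with a CpG-rich promoter. The pairs are 33.3% and 18.8%, 30.0% and 26.2%, 24.4% and 15.1%, and 22.5% and 21.2%, from left to right.

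E-boxes were about as frequent in proteasome promoters with a peak as in those without. The motif CANNTG, which reads the same way on both strands, was present in the promoter window of 32 of 45 proteasome genes (71.1%), against 70.5% of all protein-coding genes with a listed start. It was present in 8 of the 11 with a peak at the start and in 24 of the 34 without. The forms CAGATG or CATCTG were found in 5 of 45 (11.1%), against 15.4%. None of the 5 had a peak at the start, and over all protein-coding genes 346 of 2440 with these forms had one. CAGCTG was found in 6 of 45 (13.3%), against 22.7%. A peak lay at the start in 3 of the 6, PSMD3, PSMD8 and PSMD9, and over all protein-coding genes in 608 of 3597 with this form. Both forms are also counted under CANNTG.

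The search was then narrowed to the summits. A window of 50 bases on either side of the summit lay fully within a promoter window for 8 proteasome peaks, and CANNTG was present in 2 of the 8, PSMD8 and PSMF1. Over all 1506 promoter peaks that could be read in this way it was present in 26.0%, and between 125 and 25 bases before 18337 starts without a peak it was present in 30.9%. CAGATG or CATCTG was present in 0 of 8, against 3.72% of all promoter peaks and 3.90% of starts without a peak. CCAAT or ATTGG, the motif of the general promoter factor NF-Y, was present near 1 of the 8 summits, PSMA5, against 39.7% of all promoter peaks and 18.9% of starts without a peak.

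The 5 proteasome promoters that hold the preferred NeuroD1 form but no peak at the start are shown with 30 bases around the motif, which is in capitals, as the counterpart of the stretches above. They lie at chr14:35292165-35292194 (plus strand), chr17:38752687-38752716 (plus), chr14:23035020-23035049 (minus), chr16:67937056-67937085 (minus) and chr11:47426650-47426679 (minus), in the order of the lines.
PSMA6: caattcattctcCAGATGaaagcctgaaag
PSMB3: caatagaaagccCAGATGtccaggaagagt
PSMB5: aatggtctttcgCATCTGgctcttcttttt
PSMB10: gagcaaggggctCAGATGgagggggaggag
PSMC3: cccctccgcaagCATCTGtcacgggccaga
The motif began 42 bases before the start in PSMB3, closest of the 5, and 228 bases before it in PSMC3. In PSMA6 it was 140 bases before one listed start and 205 before the other. A peak list cannot show signal below the calling threshold, so weaker binding at these 5 sites was not detectable here.

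Other motifs of proteasome promoters were also counted, on both strands. TGACNNNGC, the core of the element through which NFE2L1 raises proteasome gene expression when the proteasome is blocked, was present in 15 of 45 promoters (33.3%), against 17.9% of all protein-coding genes. It was present in 6 of the 11 genes with a peak at the start, against 19.8% of all 2471 such genes. The 6 were PSMD1, PSMD3, PSMD9, PSMD12, PSME2 and PSMG2, but in PSMG2 it lay at a listed start that had no peak. The motif was present in 9 of the 34 without a peak at the start, and within 50 bases of the summit at 1 of the 8 peaks, PSMD3. CCGGAA, the core of ETS sites, was present in 25 of 45 (55.6%), against 26.6%, and in 5 of the 11. CCAAT was present in 22 of 45 (48.9%), against 42.1%, and in 3 of the 11, against 55.2% of all genes with a peak at the start.

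Outside the complex, a list of 32 genes of the pathway was read in the same way. It holds genes that act around the proteasome and regulators of proteasome genes, and was chosen with earlier results of these data known. Of the 32 genes, 12 (37.5%) had a peak, against 21.3% at like length. The exact binomial interval of the 37.5% ran from 21.1% to 56.3% and so held the share at like length. Promoter CpG content was not matched for this list. NFE2L1 and NFE2L2, transcription factors of proteasome genes, had 2 peaks each, with highest folds of 7.001 and 16.96. The ubiquitin receptor ADRM1 and the deubiquitinase UCHL5, which sit on the 19S particle, had peaks at their starts with folds of 5.79 and 7.19, and VCP, an unfoldase, had one with a fold of 6.75. UFD1, a cofactor of VCP, had 3 peaks with a highest fold of 8.20. IPO9, ZFAND5, UBQLN4 and NPLOC4 had 1 peak each, with folds of 6.40, 6.27, 5.65 and 5.28.

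Ribosomal protein genes were read as a second set of genes for large complexes. Cytoplasmic ribosomal protein genes had a peak in 18 of 86 (20.9%, 95% interval 12.9% to 31.1%), against 14.8% at like length. Mitochondrial ribosomal protein genes had one in 20 of 77 (26.0%, 16.6% to 37.2%), against 17.1%. Both intervals overlapped that of the proteasome genes, and each also held the share at like length of its own set. In each set the share was above that at like length, and promoter CpG content was not matched.

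On chromosome 17 a peak lay at 389 of 1169 protein-coding genes (33.3%), against 21.4% of all protein-coding genes. The median background at its peaks was 2.37 reads, against 1.31 over all peaks. Chromosome 17 carries 8 proteasome genes, of which 2 had a peak, PSMD3 and PSMD12. Off this chromosome the count was 15 of 43 (34.9%), against 19.1% at like length. The share at like length was taken over genes of all chromosomes, chromosome 17 included. Chromosome 14 carries another 8, of which PSMB5, PSMC6, PSME1 and PSME2 had a peak, PSME1 and PSME2 by a shared one, against 122 of 605 protein-coding genes on that chromosome (20.2%). It was picked out after its values were seen.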

How the data were processed

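NeuroD1 ChIP-seq was analysed in 1 ChIP library of IMR-32 cells. The labels' processing notes name BWA 0.7.17, MACS2 2.2.7 and the build hg38, the names of the peaks point to MACS3, and how the aligner was set, which control was used and the q cutoff are not given in the sources used here. The authors deposited a peak list with a score (10 times the −log10 q, cut to a whole number), a ratio (the fold enrichment at the summit), the −log10 of the p-value and of the q-value, and the summit. A last deposited column, the fold divided by the peak width, was not used.

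ChIP reads at each summit were solved from the fold and the −log10 p under the Poisson model of the peak caller, with 1 added to reads and background. A weight of 0.98 per read, found by scanning the list alone, solved 99.94% of the 6183 peaks within 0.01, and total depth is unknown. A gene had a peak if a peak interval touched the RefSeq gene (GRCh38.p14) or 3 kb on either side. The share at like length is the share of the other protein-coding genes in each of 10 equal classes of gene length, averaged over the proteasome genes. Starts and bases come from RefSeq promoter windows of 250 bases before to 50 after each start, and exons and introns were not analysed. The labels give 2 samples in 2 groups, and the comparison is between sets of genes within 1 library, so no test was run. The steps were tested on simulated data and run in Python 3.11.15 with pandas 2.3.3, numpy 2.4.6 and scipy 1.17.1.

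Every proteasome gene is named, and other genes only where they share a peak with one or belong to the list of 32 pathway genes. Some genes of that list are counted but not reported here by name. The members, lists and motifs were chosen with earlier results of these data known. Alternatives covered the q and fold limits, the window, the length classes, the motif form and the read weight.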

Additional observations from a re-analysis of the deposited data

How the results depend on the processing

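The share of proteasome genes with a peak was 33.3% as reported. It became 21.6% with peaks of −log10 q of at least 5 and in the gene body only, and 31.4% with a fold of at least 5. It was 27.5% within 1 kb, 41.2% within 10 kb and 30.0% among genes with a CpG-rich promoter. Without peaks that lay only at another gene's start it was 23.5%. It was 27.5% where PSMA7 and PSMB1, which have no listed start, were kept. The peaks of PSMD9, PSME2 and PSMG2, at their own start and also at that of a neighbour, stayed in. The setting of CpG-rich promoters and both settings on other genes' starts were added once the data had been seen. The share at like length moved with it, to 15.2% at a −log10 q of at least 5, 17.3% at a fold of at least 5, 13.2% in the gene body, 17.4% within 1 kb and 23% within 10 kb. It was 19.5% with 20 length classes, 21.3% with none and 26.2% among CpG-rich promoters, the last also added then. In the gene body alone there were 11 peaks. Promoters with CAGATG or CATCTG made up 11.1%, and those with CAGCTG 13.3%. The highest proteasome peak ranked 685th by −log10 q and 602nd by fold. A weight of 1 gave a median of 14.5 reads but solved 0 of the 18 peaks within 0.01.

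The proteasome share was above that at like length under each setting for which both were computed, by 3.81 percentage points among CpG-rich promoters. The share at like length was not computed for the settings that left out peaks lying only at another gene's start. No chance test was run. No replicate could be left out. No paired analysis was possible because the ChIP was sequenced as a single library. The list limits what can be seen: summits of 10 to 26 reads leave most folds unresolved from each other, and sites below the calling threshold are not listed.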
